A study of Mus musculus with 4 samples.

Results

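Intermediate filament genes were examined in ribosome profiling libraries of the mouse embryonic stem cell line E14, which derives from the inner cell mass. The group holds 7 genes, chosen by symbol from the 25170 genes of the deposited table: Vim, Nes, Krt8, Krt18, Krt19, Lmna and Lmnb1. All 7 had a row. They were picked with the difference between the treatments in these libraries already known, so their values are given as a description, without a test. The cells were wild type, were grown in serum with leukemia inhibitory factor on gelatin, and were kept for 3 passages in DMSO, the solvent, or in 1 µM PD, a compound the labels name no further. Each group had 2 libraries. The series asks what part the kinase Mek has in gene regulation after transcription, and footprints were sequenced to compare translation between the treatments.

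Intermediate filaments are rope-like polymers that give cells and nuclei mechanical strength. Their proteins share a central coiled-coil rod through which they pair. Keratins pair as an acidic type I chain with a basic type II chain and are typical of epithelia, vimentin is the main type III protein of mesenchymal cells, and nestin is a large partner of vimentin in progenitor cells. Lamins line the inner nuclear membrane. A-type lamins are usually low in pluripotent cells, whereas B-type lamins are made by nearly all cells.

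The unit is FPKM, fragments counted relative to the length of the transcript and to the size of the library. The length is not that of the coding part alone, so levels of different genes can be compared only roughly. Footprint levels depend on mRNA abundance and on ribosome density together, and a bulk library cannot tell fewer cells of a type from less RNA per cell. The labels do not say whether the replicates came from separate cultures, so the spread between libraries may be technical. Depth went with treatment: against DMSO replicate 1, DMSO replicate 2 had 1.42 times its depth, whereas PD replicates 1 and 2 had 0.464 and 0.201 times. Its part in the results below was not tested. The pluripotent identity of the cells was visible in every library, with Pou5f1 between 228 and 326 FPKM and all 9 pluripotent cell markers above the filter on low genes, a mean of 1 FPKM. Of these 9, 2 lay higher and 1 lower in PD without overlap, and 6 overlapped. Of all 9741 genes above this filter, 17.5% lay higher and 18.3% lower without overlap, so nothing is read from the count. Nanog had 70 and 57.1 FPKM in DMSO and 136 and 116 FPKM in PD, and Zfp42 had 52.8 and 58.4 FPKM in DMSO and 67.6 and 79.8 FPKM in PD. Sox2 lay lower, at 45.5 and 44.7 FPKM in DMSO and 36 and 34.6 FPKM in PD. Dppa5a, the highest of the 9, overlapped at 1414 to 3203 FPKM.

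Vim and Lmnb1 were by far the most abundant of the 7 genes, and they exchanged places between the groups. Lmnb1 led in both DMSO libraries, at 170 and 131 FPKM against 105 and 29.7 FPKM for Vim. Vim led in both PD libraries, at 207 and 185 FPKM against 114 and 132 FPKM for Lmnb1. Lmna came next at 12.3 to 17.8 FPKM, followed by Krt18 at 4.27 to 9.03 FPKM. Krt19 (0.909 to 5.56 FPKM), Krt8 (0.404 to 3.34 FPKM) and Nes (0.875 to 1.63 FPKM) were low and overlapped one another, and Krt19 also overlapped Krt18. Between 95.7% and 97.3% of the tested protein-coding genes lay below Lmnb1 in each library, and between 1.73% and 33.8% lay below Krt8. All 7 genes averaged 1 FPKM or more and entered the fit of all genes.

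**Figure D1:**
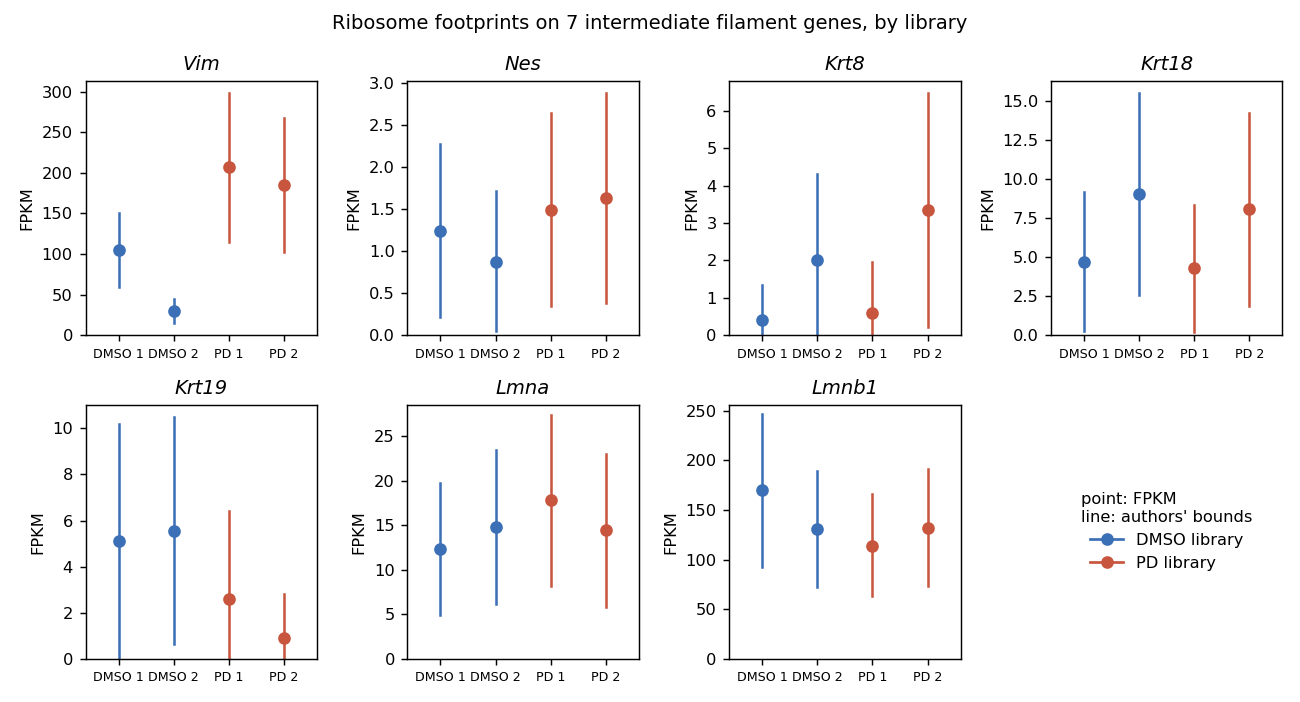
FPKM of the 7 genes in each library (points; blue, DMSO; red, PD), with the authors' confidence bounds as lines, on linear axes that start at 0. Vim and Nes have both PD points above both DMSO points, Krt19 has both below, and Krt8 and Krt18 are high in replicate 2 of both treatments.

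A gene was counted as wholly above DMSO where each PD library exceeded each DMSO library, and as wholly below in the opposite case. Of the 7 genes, Vim and Nes (2) were wholly above, Krt19 (1) was wholly below and 4 overlapped. Among the 9741 genes tested, the shares were 17.5% wholly above and 18.3% wholly below, together 35.8%. Since the genes were chosen with this comparison known, nothing is read from the count. The median log2 difference of the 7 genes, PD minus DMSO on the log2(FPKM + 1) scale, was 0.23, against -0.02 over all genes tested. The median of the 7 was -0.38 without PD replicate 2, the shallowest library, and -0.09 without DMSO replicate 1. The 7 genes did not share a direction.

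Vim, the type III filament protein that spreads through the cytoplasm of mesenchymal and many cultured cells, had the largest difference of the group. Its row lies at chromosome 2, 13574311 to 13582826 (mm10). Vim had 67.1 ± 52.9 FPKM in DMSO and 196 ± 15.2 FPKM in PD (SD, n = 2), a ratio of the means of 2.92. The log2 difference was 1.79 with an SE of 0.65, and 98.7% of the genes tested had a smaller value. The DMSO libraries lay 3.52-fold apart, whereas the PD libraries lay 1.12-fold apart.

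The spread of Vim between the DMSO libraries was larger than counting error. Whole reads could be recovered from the FPKM values, as the smallest whole numbers that fit, and gave 790 and 318 reads in DMSO and 725 and 282 in PD. The 95% exact Poisson intervals, which cover counting error only, ran from 97.4 to 112 FPKM in DMSO replicate 1 and from 26.5 to 33.2 FPKM in DMSO replicate 2. They ran from 192 to 222 FPKM in PD replicate 1 and from 164 to 208 FPKM in PD replicate 2, so the PD intervals overlapped each other and the DMSO intervals did not. The authors' wider bounds of DMSO replicate 1 (59.2 to 150 FPKM) reached into those of both PD libraries. These were 115 to 299 FPKM in PD replicate 1 and 103 to 268 FPKM in PD replicate 2. The size of the difference therefore rested on which DMSO library was used: it was 0.90 without DMSO replicate 2 and 2.68 without DMSO replicate 1, on the log2 scale. It was above 0 in all 9 alternative settings. With both PD values above both DMSO values, leaving out 1 library or changing the pseudocount could not turn its sign. The replicate block leaves it unchanged by construction, so these settings do not test the sign.

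**Figure D2:**
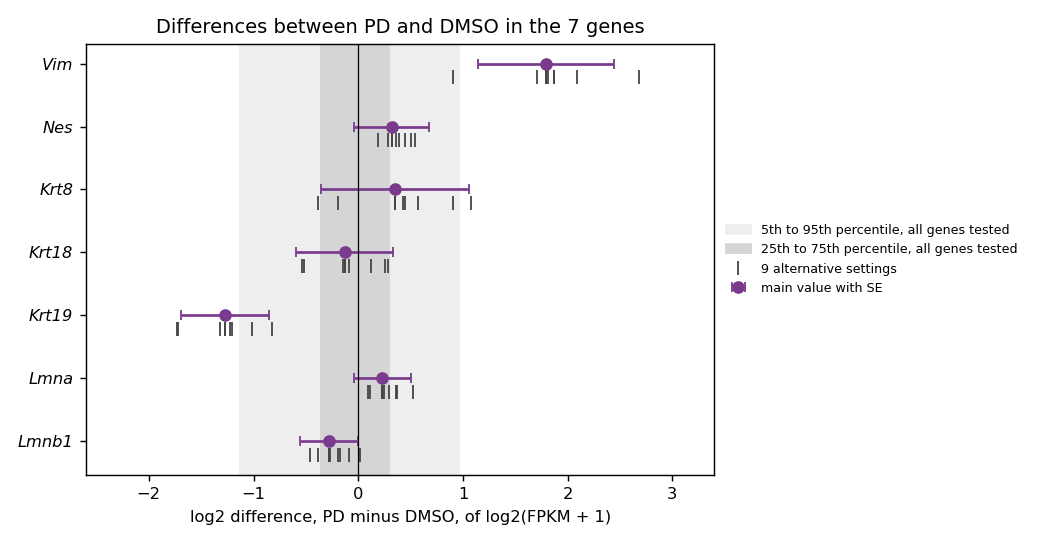
log2 difference, PD minus DMSO, of log2(FPKM + 1) for each gene, with its SE from the fit (purple) and its value in the 9 alternative settings (ticks below). Shaded bands hold the middle of all genes tested, from -0.36 to 0.29 (25th to 75th percentile, dark) and from -1.13 to 0.96 (5th to 95th, light). Vim lies above the light band and Krt19 below it in the main values, and the ticks of Krt8, Krt18 and Lmnb1 lie on both sides of 0.

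Markers of fibroblasts, the cells in which vimentin is typically abundant, were at or near 0. The 8 fibroblast markers summed to 2.1 and 2.52 FPKM in DMSO and to 3.07 and 4.67 FPKM in PD. Postn and Lum were listed at 0 in every library, and the collagen genes Col1a1, Col1a2 and Col3a1 did not exceed 1.12 FPKM. Pdgfrb had 0.249 and 0.381 FPKM in DMSO and 0.715 and 1.24 FPKM in PD. Dcn had 0.268 and 0.189 FPKM in DMSO and 0.289 and 0 FPKM in PD. Only Thy1, a surface glycoprotein, passed the filter, at 1.13 and 1.49 FPKM in DMSO and at 1.82 and 2.1 FPKM in PD.

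Genes that are often described together with vimentin in mesenchymal cells went in different directions. Of the 14 mesenchymal genes, 7 were tested. Wholly above DMSO were 3, wholly below was 1, and 3 overlapped, against 17.5% above and 18.3% below among all genes tested. Their median log2 difference was 0.44, which was 0.19 without DMSO replicate 2, 0.77 without DMSO replicate 1 and 0.08 with no filter on low genes. Sparc, a secreted matrix protein, had 82.6 and 51.7 FPKM in DMSO and 119 and 108 FPKM in PD (log2 difference 0.78, limma adjusted p = 0.837). Tgfbi, a matrix adhesion protein induced by TGF-beta, had 1.8 and 2.18 FPKM in DMSO and 6.49 and 4.27 FPKM in PD (limma adjusted p = 0.806). The repressor Zeb1 was at 0.895 and 0.659 FPKM in DMSO and at 1.93 and 0.966 FPKM in PD. Fibronectin, Fn1, was wholly below DMSO, at 79.3 and 80.1 FPKM against 86.3 and 103 FPKM. None of the 7 passed limma's test over all genes at an adjusted p of 0.05, and 1 had an unadjusted p under 0.05. By the adjusted p, 0.0308% of all genes tested were higher and 0.226% lower in PD. An unadjusted p under 0.05 was found for 5.76% of all genes tested (561 of 9741).

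The genes whose profile over the 4 libraries came closest to Vim were Rprl2, Laptm5 and Tlcd1, among 2187 genes whose mean reached 20 FPKM. Closeness was the root mean square difference of log2(FPKM + 1) after centring each gene, 0.175, 0.248 and 0.254 for the 3 genes. Rprl2, an RNA of the RNase P type in RefSeq and not a protein-coding gene, had 155 and 37.5 FPKM in DMSO and 300 and 203 FPKM in PD, from 38, 13, 34 and 10 recovered reads. Laptm5, a lysosomal membrane protein, had 43.3 and 13.6 FPKM in DMSO and 74.7 and 54.7 FPKM in PD. All 3 genes were low in DMSO replicate 2, which follows from choosing them by their likeness to Vim over these libraries. With only 4 libraries, the likeness is a description.

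Nes, like Vim, was wholly above DMSO, at a far lower level. Nestin is a large filament protein of neural and other progenitors, and its row lies at chromosome 3, 87971093 to 87980451. Nes had 1.24 and 0.875 FPKM in DMSO and 1.49 and 1.63 FPKM in PD. The groups did not overlap, but the nearest values, 1.24 and 1.49 FPKM, were close. The log2 difference was 0.32 with an SE of 0.36, so it was smaller than its SE, and it was 0.19 without DMSO replicate 2. These values came from 34, 34, 19 and 9 recovered reads. The Poisson interval of PD replicate 2 ran from 0.745 to 3.09 FPKM and held both DMSO values.

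The neural markers given here did not share this order. Dcx was listed at 0 in every library and Sox1 did not exceed 0.121 FPKM. Tubb3, a neuronal tubulin whose reads may be shared with related tubulins, stood at 56.5 and 30 FPKM in DMSO and 56.7 and 45.3 FPKM in PD. Pax6 had 2.78 and 1.35 FPKM in DMSO and 0.142 and 2.61 FPKM in PD.

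Krt8 and Krt18, the type II and type I keratins that pair in simple epithelia, were both higher in the libraries numbered 2 than in those numbered 1, in either treatment. Krt8 (chromosome 15, 101996711 to 102004342) had 0.404 and 2 FPKM in DMSO and 0.581 and 3.34 FPKM in PD. Krt18 (chromosome 15, 102028216 to 102032026) had 4.69 and 9.03 FPKM in DMSO and 4.27 and 8.05 FPKM in PD. The treatments overlapped for both genes. Within each number, PD lay above DMSO for Krt8 and below it for Krt18. The libraries of a treatment lay 4.94-fold (DMSO) and 5.76-fold (PD) apart for Krt8, and 1.93-fold and 1.88-fold apart for Krt18. The labels do not say that a number marks a shared culture or day.

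The log2 differences between the treatments were 0.35 with an SE of 0.71 for Krt8 and -0.13 with an SE of 0.46 for Krt18, both smaller than their SE. The sign for Krt8 turned without DMSO replicate 1 (-0.19) and without PD replicate 2 (-0.38). For Krt18 it turned without DMSO replicate 2 (0.28), without PD replicate 1 (0.26) and when libraries were rescaled without small RNA genes (0.12, below the 0.23 of all genes in that setting). Krt8 was thinly covered, with 3 and 21 recovered reads in DMSO and 2 and 5 in PD. Its Poisson intervals were 0.0833 to 1.18 FPKM in DMSO replicate 1 and 1.24 to 3.05 FPKM in DMSO replicate 2, which did not overlap. In the PD libraries they ran from 0.0704 to 2.1 and from 1.09 to 7.81 FPKM, which did overlap. Krt18 had 26 and 71 reads in DMSO and 11 and 9 in PD. RefSeq lists a pseudogene, Krt8-ps, and the sources used here do not say how reads matching several places were shared.

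The 2 keratin genes are neighbours that are transcribed away from each other, with 23874 bases between their annotated starts. Their promoter windows are shown because both were higher in the libraries numbered 2, and that of Vim because it had the largest difference of the group. Each window holds 250 bases before and 50 bases from the RefSeq start (GRCm38.p6, the assembly behind mm10), 5′ to 3′ on the gene's strand, so that the start follows the 250 bases. Capitals mark matches on either strand to any of 5 motifs: the TATA box, spelled TATAAA, the CCAAT box, the GC box, spelled GGGCGG, the AP-1 site, spelled TGANTCA, and an ETS site, spelled CCGGAAG. Windows were examined for 5 of the 7 genes: Vim, Nes, Lmna, Krt8 and Krt18. Those of the other genes of the group were not examined.
Vim, chr2:13574061-13574360, plus strand: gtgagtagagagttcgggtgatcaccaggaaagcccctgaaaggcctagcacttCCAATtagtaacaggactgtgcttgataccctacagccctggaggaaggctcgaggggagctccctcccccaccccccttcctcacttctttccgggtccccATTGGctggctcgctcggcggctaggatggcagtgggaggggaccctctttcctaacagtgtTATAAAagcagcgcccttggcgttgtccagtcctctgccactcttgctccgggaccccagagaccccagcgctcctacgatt
Krt8, chr15:102004293-102004592, minus strand: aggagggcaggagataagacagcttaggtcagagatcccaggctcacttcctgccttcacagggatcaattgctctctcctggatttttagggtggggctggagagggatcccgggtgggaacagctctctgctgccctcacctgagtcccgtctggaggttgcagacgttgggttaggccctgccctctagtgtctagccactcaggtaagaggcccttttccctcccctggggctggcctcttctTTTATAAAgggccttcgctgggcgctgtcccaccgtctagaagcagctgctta
Krt18, chr15:102027966-102028265, plus strand: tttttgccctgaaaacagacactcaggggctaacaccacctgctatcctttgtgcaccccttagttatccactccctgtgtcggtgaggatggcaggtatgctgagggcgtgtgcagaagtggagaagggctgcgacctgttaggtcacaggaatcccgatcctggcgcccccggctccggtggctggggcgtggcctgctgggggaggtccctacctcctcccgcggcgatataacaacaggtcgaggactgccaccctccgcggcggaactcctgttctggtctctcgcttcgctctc

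A TATA box was found in the windows of Vim and Krt8. Vim had a TATA box 32 bases before its start and CCAAT boxes 196 and 94 bases before it. Krt8 had overlapping matches to the TATA box letters on the 2 strands. They began 3 and 1 bases before the annotated start and ran across it, so they do not lie wholly upstream. Krt18 held none of the 5 motifs in these letters. Over 32851 windows of the same length, 13.6% held the TATA box, 37.4% the CCAAT box, 35.7% the GC box, 7.81% the AP-1 site and 8.86% the ETS site. A match is a description of the sequence, and the footprint data say nothing on binding there.

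Among other genes, those closest to the profile of Krt8 were Nsmce1, Sdhb and Ncapg, at 0.197, 0.198 and 0.209 on the same measure over 2188 genes. The Krt8 profile rested on 3, 21, 2 and 5 recovered reads. At its low level the added 1 FPKM shrinks its log2 differences more than those of these genes, so the likeness is a description. Sdhb, a subunit of succinate dehydrogenase, had 96.2 and 164 FPKM in DMSO and 116 and 235 FPKM in PD. Ncapg, a condensin subunit, had 23.4 and 46.9 FPKM in DMSO and 28.6 and 54.3 FPKM in PD. Krt18 itself lay at 0.354 from Krt8, the closest of the other 6 genes of the group, and Vim at 1.369 the farthest.

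Krt19, a type I keratin of simple epithelia and trophectoderm, lay lower in PD. Its row is at chromosome 11, 100140811 to 100145926. Krt19 had 5.12 and 5.56 FPKM in DMSO and 2.6 and 0.909 FPKM in PD. Both PD values lay below both DMSO values, and the DMSO libraries lay within 1.09-fold of each other. The log2 difference was -1.27 with an SE of 0.42, and 4.19% of the genes tested had a smaller value. It was -0.82 without PD replicate 2 and -1.73 without PD replicate 1. The authors' bounds were wide, from 0.0525 to 10.2 FPKM in DMSO replicate 1 and from 0 to 2.83 FPKM in PD replicate 2, so they overlapped. No whole reads could be recovered for Krt19, for which RefSeq lists 2 transcripts.

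Trophectoderm markers were mostly below the filter and did not share a direction. Krt7 and Cdx2 were listed at 0 in every library, and the 10 markers summed to 9.43 and 13.9 FPKM in DMSO and to 10.2 and 12.8 FPKM in PD. Plet1, a surface protein, was wholly above DMSO, at 7.36 and 5.87 FPKM against 5.39 and 5.84 FPKM. Tfap2c, the only other tested marker, had 3.25 and 6.05 FPKM in DMSO and 1.45 and 4.07 FPKM in PD, with overlap. Its log2 difference was -0.64, on the side of Krt19, and the median of the 2 tested markers was -0.22. The 11 primitive endoderm markers summed to at most 2.95 FPKM in any library, and the highest, Amn, ranged from 0 to 1.55 FPKM and overlapped.

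The ratio of Krt8 to its type I partners Krt18 and Krt19 was far below 1 in every library. It was 0.0412 and 0.137 in DMSO and 0.0846 and 0.373 in PD. Their summed level was 10.2 and 16.6 FPKM in DMSO and 7.45 and 12.3 FPKM in PD, so the groups overlapped in the sum. With each value at its opposite confidence bound, the ratio reached from 0 to above 1 in every DMSO and PD replicate 1 library, and from 0.012 to 3.46 in PD replicate 2.

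The most abundant keratin was not among the 7 genes. Among 20 keratin genes looked up in the table, Krt17 was the highest, and 8 were listed at 0 in all libraries. Krt17, a type I keratin of basal and stressed epithelia, had 50.3 and 30.6 FPKM in DMSO and 18.6 and 19.8 FPKM in PD (log2 difference -0.99, SE 0.33, limma adjusted p = 0.825). These rested on 315, 271, 54 and 25 recovered reads. Its close relative Krt42 had 27.6 and 18.1 FPKM in DMSO and 10.8 and 21.1 FPKM in PD, with overlap. Type I keratins are similar in sequence and can share reads, so the split between these genes is uncertain. Their sum was 77.9 and 48.7 FPKM in DMSO and 29.4 and 40.9 FPKM in PD, wholly below DMSO.

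Vim made up a larger share of the cytoplasmic filament footprints in PD. Over 33 genes, the 5 cytoplasmic genes of the group and 28 others, Vim held 46.1% and 26.7% of the summed FPKM in DMSO and 77.8% and 72.5% in PD. The 20 keratin genes held 42.5% and 63.6% in DMSO and 16.7% and 21.9% in PD. Nes held 0.547% to 0.788%. The sums themselves were 227 and 111 FPKM in DMSO and 266 and 255 FPKM in PD. These shares contain the levels of Vim by which the group was chosen.

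**Figure D3:**
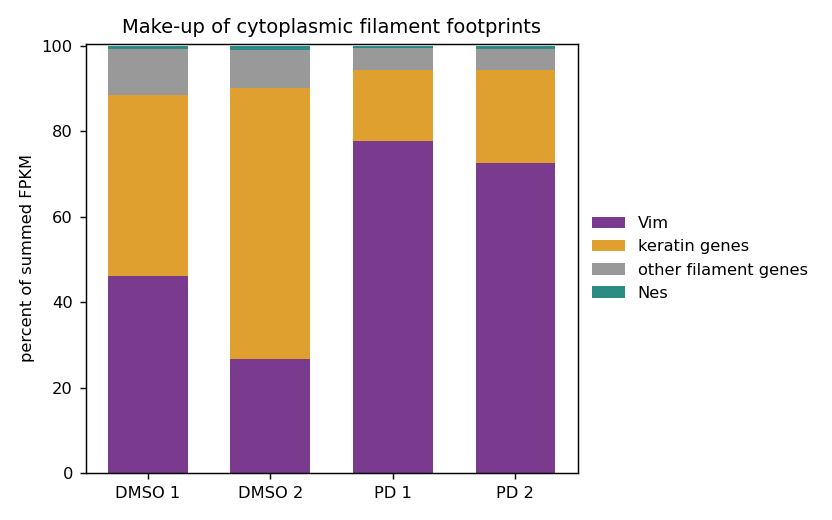
Share of each class in the summed FPKM of 33 cytoplasmic intermediate filament genes (bars, percent, 1 bar for each library). Vim takes 72.5% and 77.8% in PD and 26.7% and 46.1% in the DMSO libraries, and the keratin genes take most of the rest.

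Levels of the 2 lamin genes overlapped between the treatments. Lmnb1, a B-type lamin of the nuclear envelope (chromosome 18, 56707813 to 56753424), had 150 ± 27.6 FPKM in DMSO and 123 ± 12.4 FPKM in PD (SD, n = 2). PD replicate 2, at 132 FPKM, lay just above DMSO replicate 2, at 131 FPKM, so the groups overlapped. The log2 difference was -0.28 with an SE of 0.28, was -0.09 without DMSO replicate 1 and -0.46 without DMSO replicate 2, and it was 0.02 when libraries were rescaled without small RNA genes, a setting in which the median over all genes was 0.23 in place of -0.02. Lmnb1 had 2077 and 2267 recovered reads in DMSO and 649 and 325 in PD. Its Poisson intervals were 163 to 177 FPKM in DMSO replicate 1 and 126 to 136 FPKM in DMSO replicate 2, so these DMSO libraries too differed by more than counting error.

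Lmna encodes the A-type lamins and lies at chromosome 3, 88481148 to 88503352. It had 12.3 and 14.8 FPKM in DMSO and 17.8 and 14.5 FPKM in PD. PD replicate 2 lay below DMSO replicate 2, so the groups overlapped. The log2 difference was 0.23 with an SE of 0.27, and it ranged from 0.09 without PD replicate 1 to 0.37 without PD replicate 2. No whole reads could be recovered for Lmna, for which RefSeq lists 4 transcripts, and the authors' bounds of all libraries overlapped.

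The ratio of Lmna to Lmnb1 was 0.0723 and 0.113 in DMSO and 0.155 and 0.11 in PD. The groups overlapped in this ratio, and A-type lamin footprints were a small part of the lamins in every library. Of the summed FPKM of the 3 lamin genes, Lmnb1 held 69.9% to 82.4%, Lmnb2, the other B-type gene, 10.9% to 19.3% and Lmna 5.96% to 10.8%.

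Partners of the lamina showed a median log2 difference of 0.23 over 14 tested genes of 17, which was 0.13 without PD replicate 1, 0.09 with a filter of 5 FPKM and 0.52 when libraries were rescaled without small RNA genes. Of these, 6 were wholly above DMSO, 2 were wholly below and 6 overlapped, against 17.5% above and 18.3% below among all genes tested. Sun1, which links the lamina to the cytoskeleton across the nuclear envelope, had 25.3 and 29.8 FPKM in DMSO and 41.9 and 49.7 FPKM in PD (log2 difference 0.71, SE 0.26, limma adjusted p = 0.837). Nrm, an inner nuclear membrane protein, had 15.7 and 9.9 FPKM in DMSO and 21.8 and 18.7 FPKM in PD. Tmem43, another protein of that membrane, had 4.65 and 3 FPKM in DMSO and 7.43 and 4.77 FPKM in PD. Banf1, a small DNA-binding protein that joins chromatin to the envelope, was the most abundant at 355 to 495 FPKM. None of the 14 passed limma's test over all genes, and 1 had an unadjusted p under 0.05, against 5.76% of all genes tested.

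All 5 lamin processing enzymes were tested, with a median log2 difference of 0.13, which was -0.01 without DMSO replicate 2 and 0.21 without DMSO replicate 1. Rce1, the protease that trims the farnesylated tail, had 15.5 and 11.3 FPKM in DMSO and 17.5 and 29.1 FPKM in PD (limma adjusted p = 0.837). Zmpste24, which cleaves prelamin A, had 26 and 18.3 FPKM in DMSO and 24 and 25.2 FPKM in PD, with overlap. None of the 5 passed limma's test, and 0 had an unadjusted p under 0.05.

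Genes that anchor filaments to junctions and to other cytoskeletal systems had a median log2 difference of -0.08 over 9 tested genes of 16, which was 0.14 when libraries were rescaled without small RNA genes, also below all genes, and -0.18 without DMSO replicate 2. Of these, 1 was wholly above DMSO, 3 were wholly below and 5 overlapped, against 17.5% above and 18.3% below among all genes tested. Dst, a giant linker of filaments and microtubules, had 3.64 and 4.58 FPKM in DMSO and 2.09 and 2.29 FPKM in PD (log2 difference -0.68, limma adjusted p = 0.837). Pkp4, a plakophilin-like junction protein, had 3.59 and 5.5 FPKM in DMSO and 1.31 and 3.05 FPKM in PD. Tchp, a keratin-binding protein, went the other way, at 1.7 and 2.52 FPKM in DMSO and 3.15 and 4.84 FPKM in PD. None of the 9 passed limma's test, and 0 had an unadjusted p under 0.05.

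Epithelial genes, the class that keratins usually accompany, lay mostly lower in PD. Of 19 tested genes of 24, 15 were wholly below DMSO, 0 were wholly above and 4 overlapped, and the median log2 difference was -1.03. Among all genes tested, 18.3% were wholly below and 17.5% wholly above. The list was written with earlier results of these data known and contains genes already seen to be low, so its count is no independent evidence. Ap1m2, an epithelial clathrin adaptor subunit, had 17.1 and 16 FPKM in DMSO and 1.83 and 2.1 FPKM in PD (log2 difference -2.57, SE 0.26, limma adjusted p = 0.123). Cldn7, a tight junction protein, had 6.3 and 6.97 FPKM in DMSO, 1.78 FPKM in PD replicate 1 and was listed at 0 in PD replicate 2. Esrp1, an epithelial splicing regulator, had 11.5 and 5.29 FPKM in DMSO and 1.87 and 0.922 FPKM in PD. None of the 19 passed limma's test over all genes, and 10 had an unadjusted p under 0.05, against 5.76% of all genes tested. Krt19 and Krt17 lay on the same side as these genes, and Krt8 and Krt18 overlapped between the treatments.

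**Figure D4:**
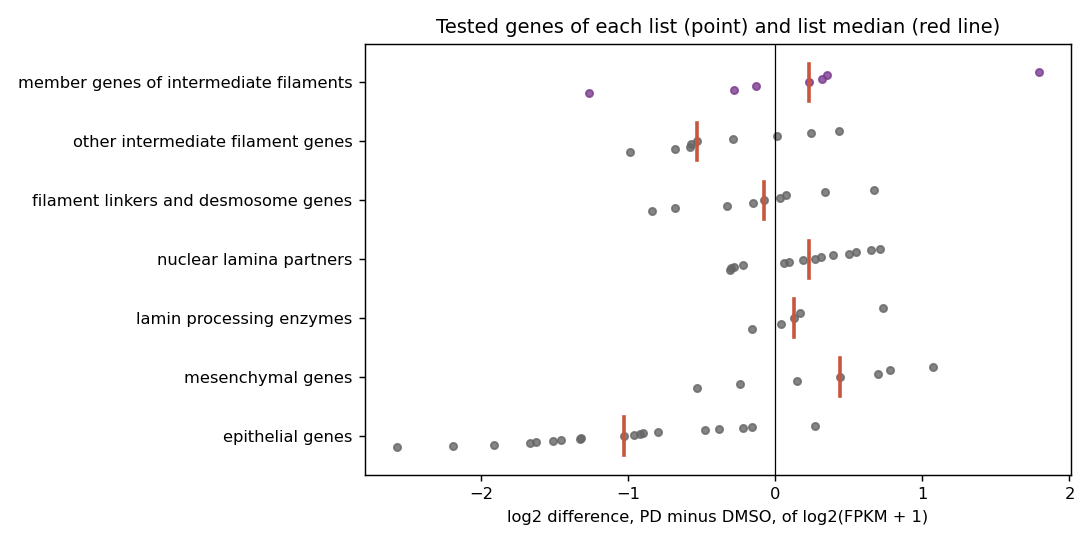
log2 difference, PD minus DMSO, of log2(FPKM + 1) for the tested genes of each list (points, purple for the 7 filament genes) with the list median (red line). The 7 filament genes spread from -1.27 to 1.79, and the epithelial genes have the lowest median, -1.03.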

How the data were processed

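Ribosome footprints of 2 DMSO and 2 PD libraries were used as the FPKM that the authors deposited, with confidence bounds of unstated level, in a Cufflinks layout per the file headers. Tools named, without versions, in the submitters' processing notes are Cufflinks, STAR, Bowtie2, Trimmomatic and FastQC, and the build is mm10. Of 25170 genes, 1 with a failed status was left out. The 9741 genes averaging 1 FPKM or more were fitted: log2(FPKM + 1), limma 3.58.1 in R 4.3.3, group as the only term, variance trend, Benjamini-Hochberg over all tested genes, threshold 0.05. A fold change on that scale understates low genes. The fit was run on simulated data with the same noise for every gene, set below the median spread of the real libraries. That run therefore does not show how the fit performs on genes as variable as Vim or Krt8. Table starts were raised by 1. Whole reads were recovered from the common steps of the FPKM of a gene (tolerance 0.02 reads) for 73.3% of 10161 genes above 0 in all libraries, against 1.92% with wrong steps. A gene's true reads may be a multiple. Reads carry no molecular identifiers.

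The 7 genes and all lists were chosen with earlier results of these data known. Named from each list were up to 3 non-overlapping genes with the largest differences, the highest marker and 3 genes nearest in profile to Vim and Krt8. Krt42, Lmnb2, Ina, Nefl, Nefm, Prph, Fn1, Banf1, Zmpste24, Tfap2c, Pax6, Pou5f1, Pdgfrb, Dcn and markers named as near 0 were chosen after their values were seen. Promoters are from RefSeq. Alternatives covered the pseudocount, scaling, filters, trend, each library left out and a replicate block.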

Additional observations from a re-analysis of the deposited data

How the results depend on the processing

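Of 200 values recomputed under alternatives, 177 moved by less than the spread between libraries (for counts, by less than 1.5 times). The log2 differences and their medians under the replicate block are among the 177, although that fit cannot change them. The numbers of genes that passed limma's test, 3 higher and 22 lower in PD, ranged from 0 to 27 and from 0 to 20 with 1 library left out. Replicate numbers were shared, but deviations of same-numbered libraries correlated at r = 0.0992 over 9741 genes and 0.162 over the 9139 that are not small RNA genes, and the labels tie no number to a culture. The fit with the replicate block gave 2 higher and 17 lower. With 1 library of each number in each treatment, that fit returns the same log2 differences by construction, 1.79 for Vim. The median of the 7 filament genes ranged from -0.38 to 0.28 with 1 library left out. Small RNA genes held 98.55% to 99.33% of the summed FPKM of a library. The other genes summed to 834166 and 836252 FPKM in DMSO and to 533560 and 862800 FPKM in PD replicates 1 and 2. Rescaling without small RNA genes sets these sums equal, and it gave 0.52 for nuclear lamina partners and 0.46 for pluripotent cell markers. It gave 0.50 for Nes, 0.52 for Lmna and 0.02 for Lmnb1, where the median of all genes stood at 0.23. A pseudocount of 0.1 FPKM gave 0.54 for Nes. The filter of 5 FPKM gave a median of 0.20 for trophectoderm markers. With 1 library left out, list medians ranged from -0.83 to 0.06 (other intermediate filament genes), -1.44 to -0.75 (epithelial genes) and -0.28 to 0.33 (pluripotent cell markers). From confidence bounds, the median ratio of Krt8 to Krt18 plus Krt19 reached 4.08, and that of Lmna to Lmnb1 ran from 0.0318 to 0.319. The upper bound for Vim over Krt8 gave no value, because the lower bound of Krt8 was 0 in 3 libraries. The cause of these shifts was not tested. Depth limits Krt8, Krt18 and Nes, each with under 10 recovered reads in PD replicate 2.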

Other observations

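Some filament genes typical of neurons were also covered in these stem cells, whereas Nefm, the medium neurofilament chain, did not exceed 0.154 FPKM. Ina, which encodes alpha-internexin, had 12.9 and 4.79 FPKM in DMSO and 6.4 and 3.26 FPKM in PD. Nefl, the light neurofilament chain, had 8.02 and 2.16 FPKM in DMSO and 4.4 and 1.35 FPKM in PD. In both genes, replicate 1 lay above replicate 2 within each treatment, and the treatments overlapped. Prph, which encodes peripherin, had 1.24 and 0.584 FPKM in DMSO, was listed at 0 in PD replicate 1 and had 5.47 FPKM in PD replicate 2.

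Of the 29 other filament genes, 9 were tested and 9 were listed at 0 in all libraries. The 9 tested genes had a median log2 difference of -0.53, which was 0.06 without DMSO replicate 1. Krt17 was wholly below DMSO, 0 genes were wholly above and the other 8 overlapped, against 18.3% below and 17.5% above among all genes tested. None passed limma's test over all genes, and 1 had an unadjusted p under 0.05, against 5.76% of all genes tested.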
